A study of Homo sapiens with 18 samples.

Results

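CEACAM1, CEACAM5, CEACAM6 and CEACAM7 are adhesion molecules of the carcinoembryonic antigen family, and CEMIP and CEMIP2 are related proteins that act on hyaluronan. They were followed through 18 expression arrays of HCT116, an established human colorectal carcinoma line. The 6 genes held 15 of the 54675 probe sets on the array, and 6 of the 19775 genes that a probe set named by a single symbol. CEMIP2 was found under its older name TMEM2. CEACAM1 and CEMIP2 were chosen by their signals, which were higher in IDH1-mutant clones of these same data, so that pattern is described here without a test. The other genes are their relatives, and were taken whatever their signal.

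The arrays came from 9 clones of HCT116, each measured in 2 biological replicates after 6 days of growth without treatment. Of the IDH1-mutant clones, 2H1 and 2C11 carried R132H/+ and 3A4 carried R132C/+. Of the IDH2-mutant clones, 47C2 and 45G3 carried R172K/+, and 17H5 and 8G12 carried R140Q/+. The wild-type clones were 16F8, which holds an R132C allele of IDH1 that it does not express and is wild-type in its mRNA, and the parental line. IDH1 and IDH2 encode the cytosolic and the mitochondrial isocitrate dehydrogenase that use NADP. Every other mutation rests on 2 clones but R132C on 1 expressing clone, so that mutation and its clone cannot be told apart.

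CEACAM proteins are built from immunoglobulin-like domains and bind each other across cell contacts. CEACAM1 spans the membrane, and its long form carries inhibitory tyrosine motifs in its tail. CEACAM5, the carcinoembryonic antigen measured in the blood of patients with colorectal cancer, CEACAM6 and CEACAM7 are held by a glycosylphosphatidylinositol (GPI) anchor and mark differentiated colon epithelium. CEMIP, also known as KIAA1199 or HYBID, is a secreted protein needed for hyaluronan breakdown in skin fibroblasts. CEMIP2 is a protein of the cell surface that has been described as a hyaluronidase.

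The CEACAM genes lie on chromosome 19, in RefSeq's annotation of GRCh38.p14, with CEACAM7 at chr19:41673303-41688270, CEACAM5 at chr19:41708626-41730519, CEACAM6 at chr19:41755530-41772211 and CEACAM1 at chr19:42507306-42528481. CEMIP lies at chr15:80779370-80951771 and CEMIP2 at chr9:71683366-71769466. The promoters of 4 of them are printed from RefSeq, because CEACAM1 and CEMIP2 were the pair picked, CEACAM5 is the relative of CEACAM1 that was too dim to compare between clones, and CEMIP is the relative of CEMIP2 that ranked the clones differently. Each runs 5′ to 3′ over 300 bases, on the minus strand for CEACAM1 (chr19:42528432-42528731) and CEMIP2 (chr9:71768464-71768763). CEACAM5 (chr19:41708376-41708675) and CEMIP (chr15:80779120-80779419) are on the plus strand. The CEMIP2 window lies inside the gene's annotated span. Capitals mark matches of CACGTG, or of GAAA, any 2 bases and GAAA again, searched on both strands, in the CEACAM promoters, and CG in the CEMIP promoters.
CEACAM1: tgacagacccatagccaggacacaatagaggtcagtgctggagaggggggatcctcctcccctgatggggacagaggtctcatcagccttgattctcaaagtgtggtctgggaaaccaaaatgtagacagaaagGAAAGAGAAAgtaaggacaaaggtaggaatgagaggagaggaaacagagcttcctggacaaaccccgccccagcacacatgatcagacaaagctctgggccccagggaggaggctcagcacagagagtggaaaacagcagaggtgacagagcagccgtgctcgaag
CEACAM5: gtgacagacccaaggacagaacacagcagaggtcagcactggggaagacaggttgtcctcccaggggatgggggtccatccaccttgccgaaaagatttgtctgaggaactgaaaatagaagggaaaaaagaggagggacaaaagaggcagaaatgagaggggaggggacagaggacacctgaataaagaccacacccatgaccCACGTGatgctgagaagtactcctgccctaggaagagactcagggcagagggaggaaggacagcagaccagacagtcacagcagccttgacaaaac
CEMIP: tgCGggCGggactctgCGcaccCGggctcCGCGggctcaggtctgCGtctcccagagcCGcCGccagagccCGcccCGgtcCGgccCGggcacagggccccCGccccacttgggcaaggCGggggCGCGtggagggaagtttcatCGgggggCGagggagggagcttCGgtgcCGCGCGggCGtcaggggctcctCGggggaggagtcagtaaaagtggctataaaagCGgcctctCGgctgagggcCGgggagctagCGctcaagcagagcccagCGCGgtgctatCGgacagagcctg
CEMIP2: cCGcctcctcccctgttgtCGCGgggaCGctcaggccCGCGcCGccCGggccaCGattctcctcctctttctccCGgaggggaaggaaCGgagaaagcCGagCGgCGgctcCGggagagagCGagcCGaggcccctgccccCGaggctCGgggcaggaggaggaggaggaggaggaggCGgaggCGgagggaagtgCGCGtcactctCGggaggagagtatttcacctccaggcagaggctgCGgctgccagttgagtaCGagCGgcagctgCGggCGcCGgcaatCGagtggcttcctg

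The CEACAM promoters were poor in CG and alike. CEACAM1 held 3 CG and CEACAM5 held 2, against a median of 14 over all 35116 promoters of the table. CEACAM1 was identical to CEACAM5 at 65.6% of aligned positions, to CEACAM6 at 68.2% and to CEACAM7 at 71.2%, and CEACAM5 was identical to CEACAM7 at 81.4%. The repeated GAAA, a pattern of interferon response elements, had 1 match in CEACAM1 and none in CEACAM5, CEACAM6 or CEACAM7, and 3.57% of all promoters held it. CACGTG, an E-box, was found in CEACAM5 and CEACAM6 but not in CEACAM1 or CEACAM7, and 7.26% of all promoters held it. CACCTG, the E-box form that ZEB1 binds, was found only in CEACAM5 among the 6 genes, without overlapping the CACGTG match, and 20.6% of all promoters held it. The CEMIP promoters were rich in CG, with 32 in CEMIP and 31 in CEMIP2, and were identical to each other at 50.3% of aligned positions. TATAAA lay 30 bases before the start in CEMIP and had no match in CEMIP2, and 11.5% of all promoters held it on either strand. These are matches of letters and were not tested as binding sites.

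The deposited values are MAS5 signals, a linear brightness per probe set, scaled by the authors to a common level. Array medians lay between 12.3 and 15.6. Differences below are on the scale of log2(signal + 2.2), which understates the change of dim probe sets. A gene was tested if both arrays of at least 1 clone reached the array median, and each gene was represented by its probe set of highest mean log2 signal, which left 12531 genes. Replicate arrays of a clone correlated at 0.984 to 0.990 and arrays of different clones at 0.970 to 0.988. Poly-A spike-in controls were higher in 4 arrays (replicate 1 of 2C11, 16F8 and parental, and replicate 2 of 8G12), by 1.68-fold on average. Of 8 markers of a colorectal epithelial line 6 passed the filter (EPCAM, CDH1, KRT8, KRT18, KRT19 and CDX2), while VIL1 and CDX1 reached at most 8.7. None of 9 granulocyte, 6 haematopoietic or 6 endothelial markers passed. The granulocyte markers, CEACAM8 and CEACAM3 among them, summed to 8.6 to 16.4 in the IDH1-mutant arrays, 12.7 to 20.3 in the IDH2-mutant arrays and 12.5 to 18 in the wild-type arrays. Of 9 fibroblast markers only COL1A1 passed, and their sum was 205 to 305 in IDH1-mutant, 211 to 318 in IDH2-mutant and 249 to 377 in wild-type arrays.

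CEACAM1 had the most probe sets, and the one with the highest mean, 209498_at, was highest in the IDH1-mutant clones. It read 71.6 and 63.7 in 2H1, 35.9 and 40.9 in 2C11, and 66.0 and 52.6 in 3A4. In the IDH2-mutant clones it read 28.4 and 34.4 in 47C2, 40.0 and 23.5 in 45G3, 20.5 and 27.0 in 17H5, and 32.1 and 20.5 in 8G12. In the wild-type clones it read 13.8 and 17.7 in 16F8, and 11.8 and 19.9 in parental. Every array of the 7 mutant clones lay above every wild-type array, and the IDH1-mutant and IDH2-mutant arrays overlapped through 1 array of 45G3. The clone means averaged 55.1 ± 15.1 in IDH1-mutant clones (SD, n = 3), 28.3 ± 3.92 in IDH2-mutant clones (SD, n = 4) and 15.8 ± 0.0707 in wild-type clones (SD, n = 2). In bulk samples, fewer cells with the transcript and less of it per cell cannot be told apart.

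In order, the CEACAM1 means were 67.7 ± 5.59 in 2H1, 59.3 ± 9.48 in 3A4, 38.4 ± 3.54 in 2C11, 31.8 ± 11.7 in 45G3, 31.4 ± 4.24 in 47C2, 26.3 ± 8.20 in 8G12, 23.8 ± 4.60 in 17H5, 15.9 ± 5.73 in parental and 15.8 ± 2.76 in 16F8 (SD, n = 2 arrays each). Only 2 pairs of neighbours in this order had arrays that did not overlap: 3A4 above 2C11, and 17H5 above parental. All clones except parental met the filter for this probe set. Over the 9 clones its log2 means had an SD of 0.69, larger than that of 96.5% of the tested genes, against a pooled SD of 0.31 between replicate arrays.

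The other CEACAM1 probe sets were dimmer in most arrays, and which CEACAM1 transcripts or relatives each probe set detects was not checked, as probe sequences were not used here. Probe set 206576_s_at read 37.1 and 37.0 in 2H1, 27.0 and 27.3 in 2C11, and 29.5 and 33.8 in 3A4. It lay between 11.9 and 23.6 in the IDH2-mutant arrays and between 11.6 and 15.4 in the wild-type arrays. Thus it set the IDH1-mutant clones apart from all others, and the IDH2-mutant clones overlapped the wild-type ones. Probe set 211883_x_at read 14.6 and 18.5 in 2H1, 17.9 and 5.4 in 2C11, and 11.4 and 13.6 in 3A4, against 4.7 to 7.4 in IDH2-mutant and 1.4 to 5.8 in wild-type arrays. It passed the filter through 2H1 alone. Probe sets 211889_x_at (1.4 to 15.6 over all arrays) and 210610_at (0.3 to 4.8) did not pass.

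Across the 9 clone means, the correlation with 209498_at was 0.915 for 206576_s_at, 0.928 for 211883_x_at, 0.776 for 211889_x_at and 0.328 for 210610_at, as a description of probe sets that share their arrays. The IDH1-mutant minus wild-type difference was 1.65 ± 0.25 for 209498_at (log2, SE), 1.05 for 206576_s_at, 1.21 for 211883_x_at, 0.93 for 211889_x_at and 0.10 for 210610_at. The IDH2-mutant minus wild-type difference was 0.75 ± 0.24 for 209498_at, but 0.22 for 206576_s_at, 0.35 for 211883_x_at, -0.03 for 211889_x_at and -0.54 for 210610_at. Only 209498_at and 206576_s_at met the filter in more than 1 clone. The values for the other 3 probe sets are differences between signals mostly below the array medians, where a change may not show, and IDH1-mutant against wild-type is the contrast by which CEACAM1 was picked.

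**Figure D1:**
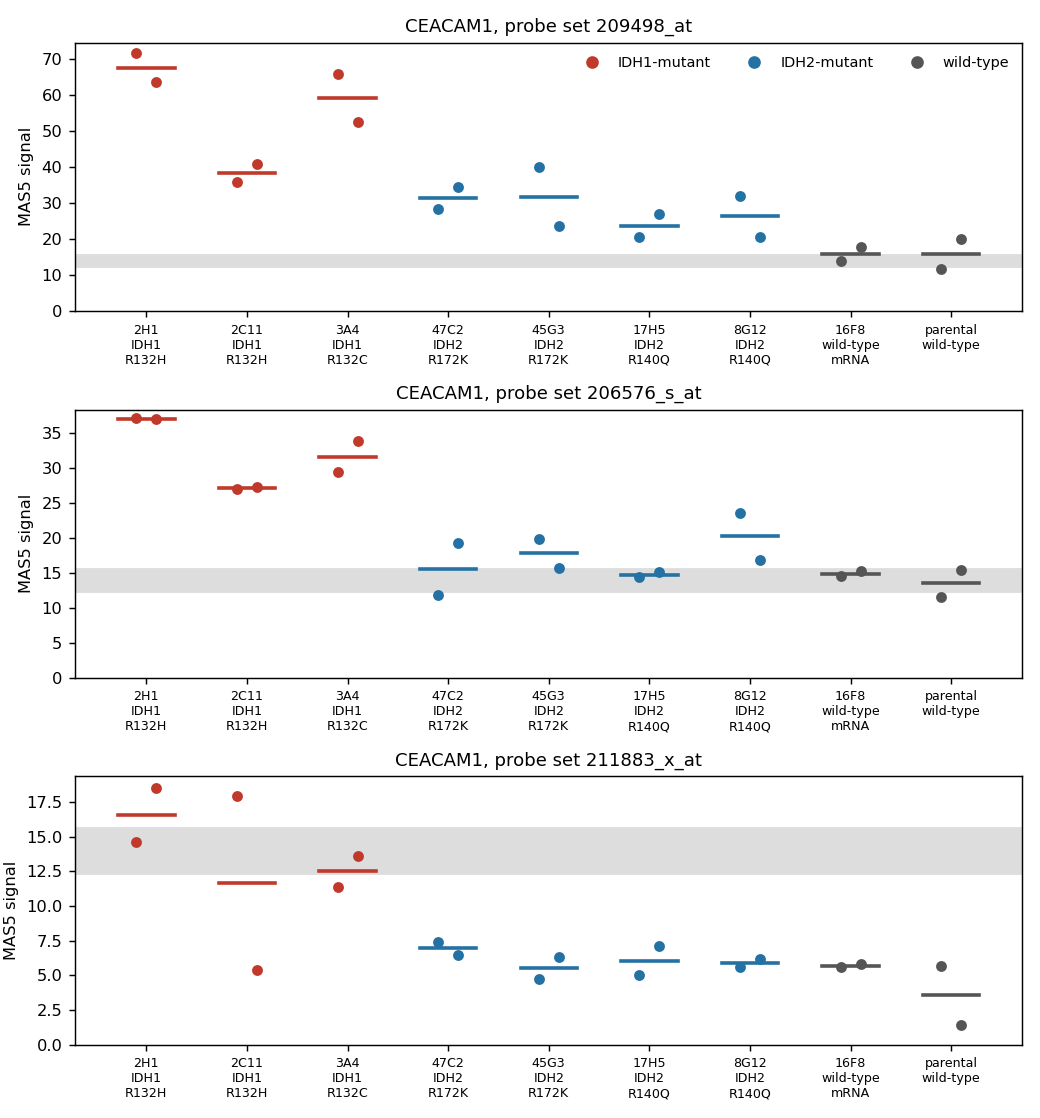
MAS5 signal (linear) of the 3 CEACAM1 probe sets that passed the filter, by clone; points are single arrays, bars the means of 2 arrays, and the grey band the range of array medians, 12.3 to 15.6. In 209498_at the IDH1-mutant arrays lie at 35.9 to 71.6, the IDH2-mutant arrays at 20.5 to 40.0 and the wild-type arrays at 11.8 to 19.9.

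The GPI-anchored relatives were dim in every clone. CEACAM5 (2 probe sets) read 0.2 to 7.4, CEACAM6 (2 probe sets) 0.1 to 5.2 and CEACAM7 (3 probe sets) 0 to 5.5. Of their 126 values none reached the median of its array, and the median of all 126 was 1.3. These 3 genes therefore entered no test, and no difference between clones was measurable for them. In all, 5 of the 15 probe sets and 3 of the 6 genes passed the filter. The brightest array for any of the 3 genes was a wild-type one, at 7.4 for CEACAM5 probe set 217291_at. So CEACAM1, on the same chromosome and with the similar promoter printed above, was the only one of the 4 CEACAM genes with signals above the array medians.

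**Figure D2:**
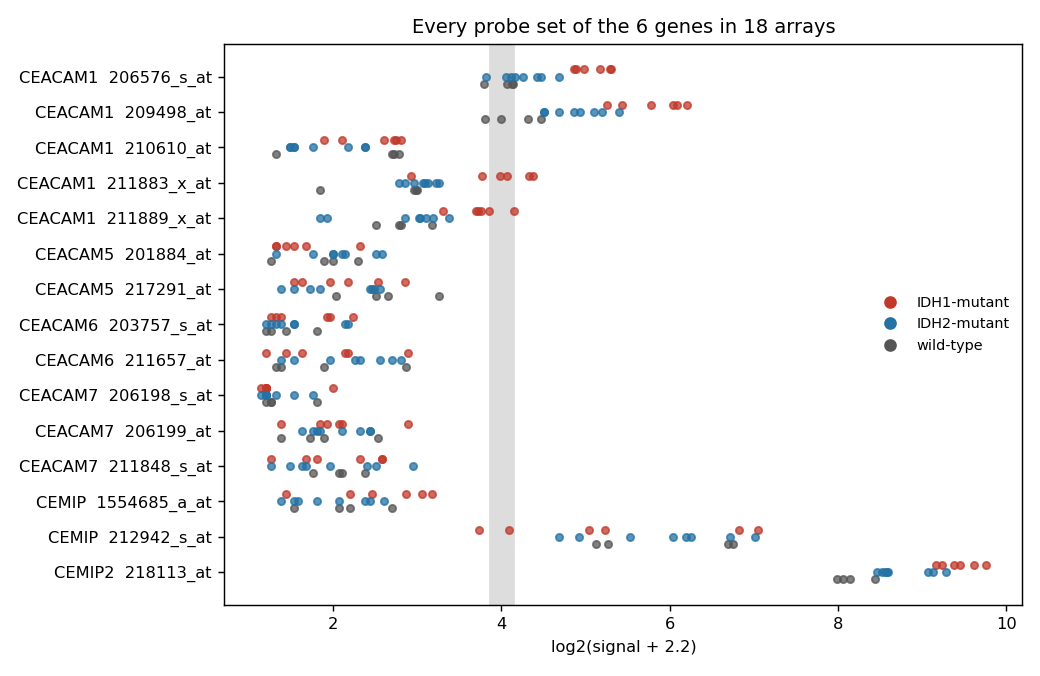
Values of all 15 probe sets in the 18 arrays, on the scale log2(signal + 2.2), coloured by the IDH status of the clone, with the range of array medians as a grey band. The 7 probe sets of CEACAM5, CEACAM6 and CEACAM7 lie left of the band in every array, CEMIP2 lies right of it in every array, and CEACAM1 209498_at and CEMIP 212942_s_at span it.

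CEMIP2, with the single probe set 218113_at, was above the array median in all 18 arrays. It read 865.7 and 780.9 in 2H1, 666.0 and 572.7 in 2C11, and 600.6 and 697.7 in 3A4. In the IDH2-mutant clones it read 534.7 and 556.0 in 47C2, 623.4 and 385.0 in 45G3, 367.2 and 379.8 in 17H5, and 352.2 and 375.8 in 8G12. In the wild-type clones it read 343.8 and 279.5 in 16F8, and 264.4 and 251.2 in parental. Every mutant array lay above every wild-type array, and the IDH2-mutant arrays reached into the IDH1-mutant range only through 1 array of 45G3. The clone means averaged 697 in IDH1-mutant, 447 in IDH2-mutant and 285 in wild-type clones. The log2 difference was 1.28 ± 0.20 for IDH1-mutant minus wild-type clones, 0.62 ± 0.19 for IDH2-mutant minus wild-type clones and 0.66 ± 0.17 for IDH1-mutant minus IDH2-mutant clones. That of CEACAM1 was 0.90 ± 0.21 in the last of these.

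The CEMIP2 order was 823 ± 60.0 in 2H1, 649 ± 68.7 in 3A4, 619 ± 66.0 in 2C11, 545 ± 15.1 in 47C2, 504 ± 169 in 45G3, 374 ± 8.91 in 17H5, 364 ± 16.7 in 8G12, 312 ± 45.5 in 16F8 and 258 ± 9.33 in parental (SD, n = 2 arrays each). The arrays of 3A4 and 2C11 overlapped, as did those of 47C2 and 45G3 and those of 17H5 and 8G12, and the other neighbours did not. The replicates of 45G3 differed most in CEMIP2, and replicate 1 was the brighter one for CEMIP2, CEACAM1 and CEMIP alike. Replicate 1 of 45G3 had the lowest poly-A controls of all arrays, and replicate 2 had the lowest ratio of 3′ to 5′ signal for ACTB, 1.59 against up to 2.35 in other arrays. Their part in the results was not tested.

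CEMIP did not follow the mutated gene. Its bright probe set 212942_s_at read 30.8 and 35.5 in 2H1, 111.5 and 129.9 in 2C11, and 11.1 and 14.8 in 3A4. In the IDH2-mutant clones it read 23.4 and 28.2 in 47C2, 63.7 and 43.9 in 45G3, 71.1 and 73.8 in 17H5, and 127.4 and 102.6 in 8G12. In the wild-type clones it read 105.4 and 101.5 in 16F8, and 36.2 and 32.6 in parental. High and low clones were found in each of the 3 groups, so the groups overlapped throughout. Probe set 1554685_a_at read 0.4 to 6.8 and never reached the array median, and its correlation with 212942_s_at over the 9 clones was 0.381.

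The CEMIP order was 121 ± 13.0 in 2C11, 115 ± 17.5 in 8G12, 103 ± 2.76 in 16F8, 72.5 ± 1.91 in 17H5, 53.8 ± 14 in 45G3, 34.4 ± 2.55 in parental, 33.2 ± 3.32 in 2H1, 25.8 ± 3.39 in 47C2 and 13.0 ± 2.62 in 3A4 (SD, n = 2 arrays each). The arrays of 2C11 and 8G12 overlapped, as did those of 8G12 and 16F8 and those of parental and 2H1, and the remaining neighbours did not. The log2 clone means had an SD of 1.05, larger than that of 99.1% of tested genes, against a pooled SD of 0.19 between replicates. For CEMIP2 these were 0.55, larger than 93.9% of tested genes, and 0.20.

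**Figure D3:**
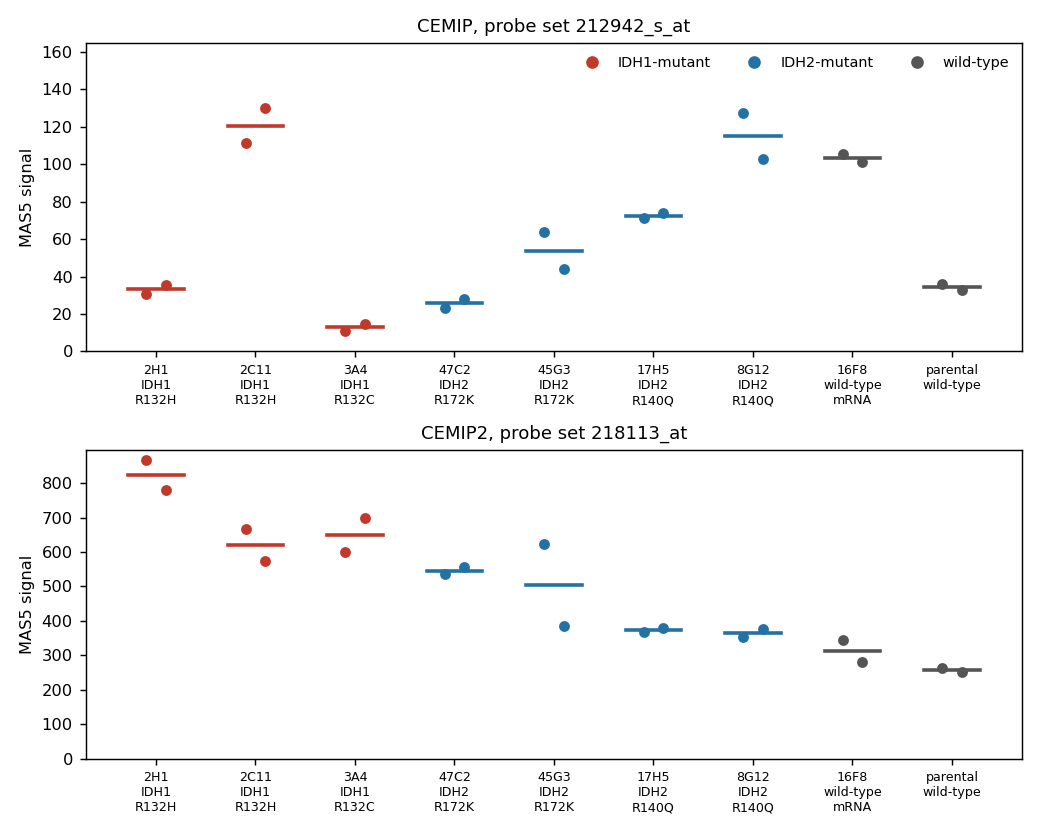
MAS5 signal (linear) of CEMIP and CEMIP2 by clone; points are single arrays and bars the means of 2 arrays. CEMIP2 runs between 572.7 and 865.7 in the IDH1-mutant arrays and between 251.2 and 343.8 in the wild-type arrays, while CEMIP is high in 2C11, 8G12 and 16F8 and lowest in 3A4.

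With the clone as the replicate, CEMIP showed no detectable difference between genotype groups in limma with Benjamini-Hochberg adjustment. It differed by -0.63 ± 0.81 between IDH1-mutant and wild-type clones (95% interval -2.42 to 1.17, adjusted p = 0.732) and by -0.04 ± 0.77 between IDH2-mutant and wild-type clones (-1.74 to 1.66, adjusted p = 0.995). Between IDH1-mutant and IDH2-mutant clones it differed by -0.59 ± 0.68 (-2.09 to 0.91, adjusted p = 0.737). These intervals leave room for differences of more than 1 on the log2 scale in both directions for IDH1-mutant and IDH2-mutant clones against wild-type. Of all 12531 genes 0% passed in IDH1-mutant minus wild-type clones, 0% in IDH2-mutant minus wild-type clones, and 0.00798%, or 1 gene, in IDH1-mutant minus IDH2-mutant clones. At an unadjusted p under 0.05 the counts were 1923, 637 and 1650 genes, and with arrays as samples and the clone as a random block limma called 380, 1 and 102.

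Against parental, single clones differed in CEMIP in both directions. It rose in 5 of 8 clones: 2C11 by 1.75 (adjusted p = 8.50e-06), 8G12 by 1.67 (2.79e-05), 16F8 by 1.53 (5.00e-05), 17H5 by 1.03 (0.00347) and 45G3 by 0.59 (0.0368). It fell in 3A4 by 1.28 (0.000119), and was -0.05 in 2H1 (0.878) and -0.39 in 47C2 (0.168). The SE was 0.20 for each, and these tests of 18 arrays compare clones, not genotypes. The clone with the R132C allele that is not expressed, 16F8, thus had more CEMIP signal than parental, while 3A4, with the expressed R132C allele, had less. Clone 3A4 alone did not meet the filter for this probe set. It read 11.1 and 14.8 there, near the array medians of 12.3 and 12.7, so the size of its fall is approximate. Passing was common at large: 30.9% of all genes passed in 2H1, 25.8% in 2C11, 37.2% in 3A4, 28% in 47C2, 29.8% in 45G3, 11.8% in 17H5, 18.4% in 8G12 and 22% in 16F8. All 8 differences share the parental arrays.

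The choice of wild-type clone turned some of these directions. Set against 16F8, an alternative chosen after seeing the data, CEMIP was lower by -2.81 in 3A4, -1.92 in 47C2, -1.58 in 2H1 and -0.94 in 45G3, all past the threshold. The size in 3A4 is approximate, as its CEMIP signal lay near the array medians. Against 16F8, 26.3% of all genes passed in 3A4, 6.41% in 47C2, 16.4% in 2H1 and 2.14% in 45G3, and 8.53% in 17H5, 2.25% in 2C11 and 0.63% in 8G12. The differences were -0.50 in 17H5 (adjusted p = 0.139), 0.21 in 2C11 (0.739) and 0.14 in 8G12 (0.986), none of which passed. So 45G3 was called higher than parental and lower than 16F8. The 45G3 minus parental call was also lost without replicate 1 of 45G3 (adjusted p = 0.298), without parental replicate 1 (0.0686) or 2 (0.157), without a filter (0.0696), and without the 4 arrays of high poly-A controls (0.0808).

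For CEACAM1 the differences from parental were 1.99 in 2H1, 1.20 in 2C11, 1.80 in 3A4, 0.93 in 47C2, 0.90 in 45G3, 0.55 in 17H5 and 0.67 in 8G12, each with an SE of 0.29. Parental did not meet the filter for this probe set, so these sizes are approximate. For CEMIP2 the differences were 1.67, 1.25, 1.32, 1.07, 0.92, 0.53 and 0.49 in the same clones, each with an SE of 0.17. Among the mutant clones, the means of CEACAM1 (209498_at) and CEMIP2 were highest in the 3 IDH1-mutant clones. They were middle in the R172K clones and lowest in the R140Q clones. This is the pattern by which the genes were picked, as far as the IDH1-mutant clones go. The R172K and R140Q arrays of 209498_at overlapped. The other CEACAM1 probe set that met the filter in several clones, 206576_s_at, averaged 16.7 in R172K and 17.5 in R140Q clones.

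**Figure D4:**
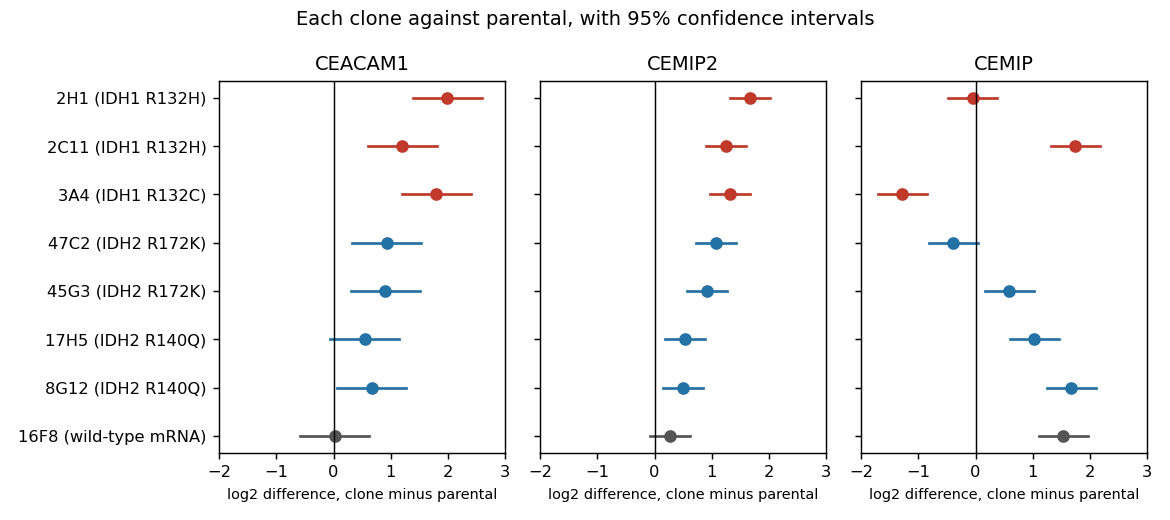
Log2 difference of each clone from parental for the 3 tested genes, with 95% confidence intervals (limma, 18 arrays); red marks IDH1-mutant, blue IDH2-mutant and grey wild-type mRNA. CEACAM1 and CEMIP2 are above 0 in all 7 mutant clones, while CEMIP runs between -1.28 in 3A4 and 1.75 in 2C11. Sizes for CEACAM1 are approximate, as parental did not meet the filter for it.

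The comparisons below differ from the contrast that picked CEACAM1 and CEMIP2, and were tested for all 3 genes that passed the filter. A pick of genes higher in IDH1-mutant than in wild-type clones can favour small differences between 2H1 and 2C11 and between 16F8 and parental. CEMIP was not picked, so the genes cannot be set against each other there. Between the wild-type clones, 16F8 and parental, CEACAM1 differed by 0.02 ± 0.29 (95% interval -0.58 to 0.62, adjusted p = 0.969). CEMIP2 differed by 0.26 ± 0.17 (-0.09 to 0.62, adjusted p = 0.285). Of the 3 genes only CEMIP passed here, where 22% of all genes did, by the 1.53 given above.

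Between the IDH2 mutations, R172K and R140Q, none of the 3 genes passed, and 0% of all genes did; 851 genes had an unadjusted p under 0.05, and limma with the clone as a random block called 80. CEMIP2 averaged 525 in the R172K clones and 369 in the R140Q clones, a log2 difference of 0.49 ± 0.17 (95% interval 0.10 to 0.87, adjusted p = 0.680), and the arrays of the 2 genotypes did not overlap. CEACAM1 averaged 31.6 in the R172K clones and 25 in the R140Q clones, a difference of 0.31 ± 0.27 (-0.30 to 0.92, adjusted p = 0.831). Its probe set 206576_s_at differed by -0.06 ± 0.25 in a limma fit of every probe set (adjusted p = 0.972). CEMIP averaged 39.8 in the R172K clones and 93.7 in the R140Q clones, a difference of -1.25 ± 0.65 (-2.71 to 0.21, adjusted p = 0.739). Every R172K array of CEMIP lay below every R140Q array, but its clone means were spread so widely that the interval included 0.

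Of the pairs of clones with the same mutation, 2 differed in CEMIP and none detectably in the other 2 genes. For the R132H pair the pick of those 2 genes may have favoured small differences. CEMIP fell by 1.80 ± 0.20 in 2H1 relative to 2C11 (adjusted p = 2.25e-05), both R132H, in a comparison where 4.6% of all genes passed. It fell by 0.98 ± 0.20 in 47C2 relative to 45G3 (adjusted p = 0.0126), both R172K, where 2.92% passed. That call was lost without either 47C2 array (adjusted p = 0.168 and 0.0571) and without replicate 1 of 45G3 (0.0787). Between 17H5 and 8G12, both R140Q, the difference was -0.64 ± 0.20 (adjusted p = 0.0874), and 3.35% of all genes passed. The difference of 1.80 between the R132H clones was about as large as the 1.75 by which 2C11 exceeded parental. Both use the 2C11 arrays, and 2H1 differed from parental by only -0.05, so the 2 values are not independent.

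CEACAM1 was 0.78 ± 0.29 higher in 2H1 than in 2C11 (95% interval 0.18 to 1.39, adjusted p = 0.146). It differed by 0.02 ± 0.29 between 47C2 and 45G3 (-0.58 to 0.63, adjusted p = 0.980) and by -0.12 ± 0.29 between 17H5 and 8G12 (-0.72 to 0.49, adjusted p = 0.875). CEMIP2 differed by 0.41 ± 0.17 between 2H1 and 2C11 (0.06 to 0.76, adjusted p = 0.197), by 0.15 ± 0.17 between 47C2 and 45G3 (-0.20 to 0.50, adjusted p = 0.687) and by 0.04 ± 0.17 between 17H5 and 8G12 (-0.31 to 0.39, adjusted p = 0.934). For these 2 genes, all 4 intervals between clones of the same IDH2 mutation included 0, and the intervals between the R132H clones did not, although neither difference passed after adjustment.

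**Figure D5:**
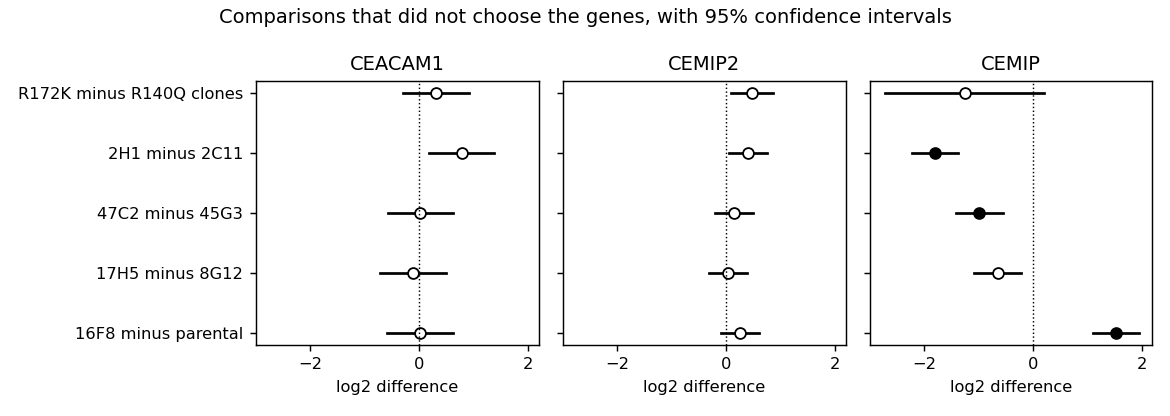
Log2 differences, with 95% confidence intervals, in 5 comparisons other than the contrast that picked CEACAM1 and CEMIP2. Filled points passed the adjusted threshold of 0.05 and open points did not. Of the 15 points 3 are filled, all of CEMIP: -1.80 for 2H1 minus 2C11, -0.98 for 47C2 minus 45G3 and 1.53 for 16F8 minus parental.

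CEACAM1 and CEMIP2, picked for the same contrast, had alike orders of clones: 2H1, 3A4 and 2C11 led both, and the later clones followed by the same mutation or wild-type pairs with the members of each pair swapped. The correlation of their log2 clone means was 0.960 over the 9 clones. That of CEMIP was -0.475 with CEACAM1 and -0.379 with CEMIP2. Among 12520 other tested genes, those most like CEACAM1 were ROCK2, a kinase of actin contractility (r = 0.979), FN1, the matrix protein fibronectin (0.965), CEMIP2, LYZ, lysozyme (0.959), and SHB, an adaptor protein (0.956). Those most like CEMIP2 were ALDH16A1 (0.984), ROCK2 (0.982), SHB (0.979), TSPAN8, a tetraspanin (0.967), and LYZ (0.966). ROCK2, SHB and LYZ stood on both lists. Those most like CEMIP were GNAL, a G protein subunit (0.971), DNASE1 (0.967), NLN, the peptidase neurolysin (0.964), MCCC2, of leucine breakdown (0.954), and CD2AP, an adaptor protein (0.952).

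With ZEB1, a repressor of epithelial genes, the correlation was 0.891 for CEACAM1, 0.868 for CEMIP2 and -0.713 for CEMIP. With CDH1, E-cadherin, it was -0.854, -0.894 and 0.558 in the same order. Among 12530 genes ranked down from the highest correlation, ZEB1 stood at 94 for CEACAM1, 143 for CEMIP2 and 11923 for CEMIP. CDH1 stood at 12223, 12371 and 2150, so many genes had stronger correlations than these 2. ZEB1 averaged 407 in 2H1, 217 in 2C11, 430 in 3A4, 305 in 47C2, 269 in 45G3, 117 in 17H5, 158 in 8G12, 109 in 16F8 and 149 in parental. CDH1 averaged 478, 792, 452, 520, 646, 1309, 1036, 1024 and 1562 in the same clones. Thus 2H1 and 3A4, with the most CEACAM1 and CEMIP2 signal, also had the most ZEB1 and the least CDH1. Clone 2C11, next in both orders, had less ZEB1 and more CDH1 than 47C2 and 45G3. All these values come from the same arrays, and likeness over 9 clones is a description only.

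Other genes of the CEACAM family gave little to measure. Of 8 further family members 5 were on the array and 1, CEACAM19, was tested. It did not meet the filter in 2H1, 3A4 and 45G3, where it averaged 13.35, 12.15 and 14, against 28.85 in parental. In these 3 clones CEACAM19 lay near or below the array medians, at 9.8 to 18.2, so no size or test of its difference from parental is given. Of 7 partners of CEACAM1 on the array 6 were tested, and none rose in any clone. For this list and those below, 11.8% (17H5) to 37.2% (3A4) of all genes passed against parental, so single calls were common. SHC1, an adaptor of growth factor receptors, fell in 6 of 8 clones, by 0.83 in 2C11 (adjusted p = 3.32e-05), 0.78 in 2H1 (4.75e-05) and by less in 3A4, 45G3, 8G12 and 16F8. INSR, the insulin receptor, whose uptake CEACAM1 promotes in mouse liver, fell in 4 clones, by 0.42 to 0.53, with 964 in 2C11 and 901 in 2H1 against 1297 in parental. CTNNB1, beta-catenin, and PTPN11, a phosphatase that binds inhibitory tyrosine motifs, passed in none, and PTPN6, a related phosphatase, fell in 3A4 alone. The list's median difference from parental lay between -0.39 (3A4) and -0.04 (2C11), against -0.02 and 0.01 over all tested genes in those 2 comparisons.

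Among enzymes that make hyaluronan, the synthase HAS2 was above the array medians in the IDH1-mutant and R172K clones. It averaged 31.8 ± 3.68 in 2H1, 42.8 ± 2.40 in 2C11 and 17.8 ± 5.37 in 3A4. It averaged 27.1 ± 2.90 in 47C2, 42.0 ± 16.3 in 45G3, 10.2 ± 0.283 in 17H5 and 9.7 ± 1.27 in 8G12, against 9.5 ± 0.141 in 16F8 and 7.35 ± 2.76 in parental. It met the filter only through the 5 IDH1-mutant and R172K clones. In the other 4 it lay at 5.4 to 10.6, below the array medians, so no size of its difference from parental is given. HAS3, another synthase, stayed between 1440 and 1719 in the clone means and passed in none. UGP2 and UGDH, which supply the sugar nucleotides, passed in 2 and 3 clones, with UGP2 higher (by 0.28 in 2C11 and 0.34 in 3A4) and UGDH lower (by -0.38 in 3A4, -0.36 in 47C2 and -0.35 in 8G12). The median difference of the 4 tested genes from parental lay between 0.04 (16F8) and 0.17 (3A4), against medians of -0.02 (3A4) to 0.04 (8G12) over all tested genes.

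Of the enzymes that break hyaluronan down, 4 were tested. HYAL2, the hyaluronidase with a GPI anchor, passed in 2C11 alone (0.36, adjusted p = 0.0373). Its difference was similar in 8G12 (0.35, adjusted p = 0.0502) and 16F8 (0.33, 0.0579). It was 0.23 to 0.29 in 2H1, 3A4, 47C2 and 45G3, and 0.03 in 17H5. GUSB, a lysosomal glucuronidase, rose in 2H1 (0.30), 3A4 (0.42) and 47C2 (0.29), while HEXA, a lysosomal hexosaminidase subunit, fell by 0.47 in 2H1, 0.49 in 3A4 and 0.43 in 45G3. HYAL3 fell by 0.80 in 17H5 (adjusted p = 0.0234). The list's median lay between -0.21 (16F8) and 0.14 (2H1).

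Of 18 genes that bind or sense hyaluronan, 6 were tested. VCAN, the large matrix proteoglycan versican, averaged 1778 in 2H1, 1510 in 2C11, 2060 in 3A4 and 1386 in 47C2, against 840 in parental, and rose in these 4 clones by 0.72 to 1.29. It averaged 598 in 17H5 and 482 in 16F8 and fell there by 0.49 and 0.80. HAPLN3, a link protein that joins hyaluronan to proteoglycans, rose in all 8 clones relative to parental, by 0.55 in 17H5 to 0.90 in 2H1, so 16F8 shared in it. CD44, the main hyaluronan receptor, averaged 2215 in 45G3 against 2897 in parental and passed only there (-0.39, adjusted p = 0.0234). HMMR, another receptor, passed in none. The list's median lay between 0.02 (3A4) and 0.42 (2C11).

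Of 19 genes of differentiated colon cells 3 were tested, and such cells carry CEACAM5, CEACAM6 and CEACAM7. CA2, carbonic anhydrase, rose in all 8 clones relative to parental, by 0.51 in 2H1 to 1.48 in 2C11. KRT20, a keratin of differentiated colon epithelium, averaged 20.3 in 2H1, 17.0 in 2C11, 11.8 in 3A4, 10.1 in 47C2 and 21.8 in 45G3, against 41.2 in parental, and fell in these 5 clones, with 3A4 and 47C2 near or below the array medians. CDX2, a colon transcription factor, passed in none, and the median of the 3 genes lay between -0.51 (2H1) and 0.30 (8G12). All 20 genes of GPI anchor synthesis and attachment were tested, although the 3 GPI-anchored CEACAM genes were not measurable. In that list PIGL fell in 6 clones by 0.51 (16F8) to 0.81 (3A4), and PIGP fell in 5, by 0.83 in 3A4 at most. Others rose: PIGK by 0.33 in 2C11, 0.35 in 2H1 and 0.43 in 3A4, PIGC by 0.37 in 2H1 and 0.39 in 45G3, and PIGU by 0.47 in 16F8. In 3A4, with the most calls of all genes (37.2%), 1 of the 20 genes was called higher and 4 lower. The median of the 20 genes lay between -0.03 (16F8) and 0.13 (47C2). No gene of any of these lists passed in the 4 genotype comparisons, where at most 0.00798% of all genes did.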

How the data were processed

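Per the labels, total RNA of each clone was amplified, labelled with biotin and hybridised to one-colour arrays. The deposited intensity values are linear signals that the authors made with MAS5, per the submitters' processing notes, of a version not given in the sources used here. Trimmed of its extremes to 96%, each array averaged 150.0.

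From these, log2(signal + 2.2) was taken, with the lower quartile of the values as offset. A single symbol named 41091 probe sets, several named 1801 and no symbol 11721, and none of the several-symbol ones held a gene described here. Symbols came from the platform annotation and RefSeq. Models were fitted with limma 3.58.1 in R 4.3.3 (lmFit, eBayes with trend), with two-sided p-values adjusted by Benjamini-Hochberg over 12531 genes at 0.05. Genotypes were compared on 9 clone means, with 3 groups or 5 genotypes in the model, and clones on 18 arrays. Errors are SE for log2 differences and SD for signals. Arrays give no counts, and 2 per clone limit the precision.

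Members, gene lists and tests were chosen with earlier results of these data known. The genes named are the 6 described, the 5 tested genes most correlated with each tested one, up to 4 genes of each list by mean signal and by smallest p among those past the threshold, and ZEB1 and CDH1; PTPN6 is named under the same rule. In simulated data, 100 genes were changed by 1 on the log2 scale and 100 by 2, in normal noise that was independent between genes. The R172K minus R140Q test recovered 46% and 81% of them, with 5 false calls. The 47C2 minus 45G3 test recovered 78% and 99%, with 8 false calls. In the real R172K minus R140Q comparison 0% of all genes passed, so these rates may not hold for it. Deviations of same-numbered replicates correlated between -0.48 and 0.47 over 36 pairs of clones. The sign varied, and the main fits did not pair arrays by replicate number. Some clones thus shared part of their replicate differences, and the source of this was not tested. Alternatives covered the offset, filter, normalization, probe set, variance model, replication unit, replicate number, and leaving out each array or clone; leaving out 4 arrays with high poly-A controls and taking 16F8 in place of parental were chosen after seeing the data. Figures were drawn with matplotlib 3.10.9 in Python 3.11.15.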

Additional observations from a re-analysis of the deposited data

Results flagged for a closer look

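CEMIP differed between clones that carry the same mutation. In 2H1 relative to 2C11, both IDH1 R132H, the log2 difference was -1.80 (limma over 18 arrays, adjusted p = 2.25e-05), with 30.8 and 35.5 in 2H1 against 111.5 and 129.9 in 2C11. In 47C2 relative to 45G3, both IDH2 R172K, it was -0.98 (adjusted p = 0.0126), with 23.4 and 28.2 in 47C2 against 63.7 and 43.9 in 45G3. Between 17H5 and 8G12, both IDH2 R140Q, the difference did not pass (-0.64, adjusted p = 0.0874). These are differences between clones and say nothing of the mutation.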

How the results depend on the processing

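None of the alternatives gave a call for CEMIP in the 4 genotype comparisons, or for CEACAM1 and CEMIP2 in R172K minus R140Q clones, where they were tested. CEMIP passed in 6 clones against parental, and 2 pairs of clones of the same mutation differed, a count that lay between 1 and 2 when single arrays were left out (1 without either 47C2 array or without 45G3 replicate 1). With the replicate number as a block these counts stayed at 6 and 2, and no call of the 3 genes changed. With 16F8 in place of parental, CEMIP reversed to -0.50 in 17H5 and -0.94 in 45G3, and 4 of 7 clones passed. The cause was not tested. The uncalled CEMIP difference changed sign in 2 alternatives for IDH1-mutant minus wild-type clones (up to 0.14), in 5 for IDH2-mutant minus wild-type clones (up to 0.73) and in 1 for IDH1-mutant minus IDH2-mutant clones (0.12). The described differences for IDH1-mutant minus wild-type clones ranged from 1.14 to 1.88 for CEACAM1 and from 1.15 to 1.41 for CEMIP2. Counts over all genes moved more: IDH1-mutant minus wild-type went to 380 genes with the clone as a random block, 323 with the replicate number added, 210 without 16F8 and 81 without 2C11, against 0; IDH1-mutant minus IDH2-mutant to 102, 84, and 45 without 2C11, against 1; R172K minus R140Q to 80 and 75 against 0; and IDH2-mutant minus wild-type to 24 without 16F8 against 0. Other alternatives gave at most 5. Signals near the array median limit what CEACAM1 can show in the wild-type clones.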
